A study of Caenorhabditis elegans with 6 samples.

Results

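The endoderm specification cascade of Caenorhabditis elegans was followed in embryos of yap-1(ys38), a mutant strain of the worm counterpart of the Hippo coactivator YAP, and of the wild-type strain N2. It was defined as 8 genes, skn-1, med-1, med-2, end-1, end-3, elt-2, elt-4 and elt-7, and its members were the probe sets whose annotation carries one of these symbols. This gave 9 probe sets for 6 of the 8 genes, out of 22548 probe sets and 17138 genes named by a single symbol. No probe set listed here carries med-2 or elt-4, and these genes are not analysed here. RNA came from whole embryos freed by bleaching gravid adults, with 3 biological replicates per strain and 1 Affymetrix array per replicate. The design text names Hippo pathway targets in the upkeep of cell polarity as the object of the comparison. As the submitters did, the test here omits wild type replicate 2, which differed from its fellow replicates: yap-1(ys38) replicates 1, 2 and 3 were tested against wild type replicates 1 and 3, and the values of the omitted array are given beside them. The labels do not say what the ys38 allele changes in yap-1, nor how old the embryos were.

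In the worm embryo the gut descends from a single founder cell, E, whose fate is set by a relay of transcription factors. Maternal SKN-1 acts in the mother of E and MS and turns on the near-identical GATA-type factors MED-1 and MED-2. These act in both daughters, and in E a Wnt and kinase signal that changes the activity of the TCF factor POP-1 lets the GATA factors END-1 and END-3 be made. END-1 and END-3 are transient and hand over to ELT-2 and ELT-7, GATA factors that keep gut genes on for the rest of life. ELT-4 is a short GATA protein related to ELT-2. In the RefSeq annotation of WBcel235, elt-4 and elt-2 lie on the same chromosome with 1 protein-coding gene between them, and end-1 and end-3 share a chromosome with 4 between them.

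The arrays held 77 control probe sets beside the 22548, and the median intensity was 118 to 133 in the yap-1(ys38) arrays and 123, 86.6 and 122 in wild type replicates 1, 2 and 3. Intensities are MAS5 signals on a linear scale, scaled to a common level per array. A probe set was tested if its mean log2 intensity over the 6 arrays lay above the 40th percentile, an intensity of 53.5, which left 13529. Wild type replicate 2 stood apart, correlating with the others at 0.879 on average, where each of the remaining arrays reached 0.930 to 0.951. The yap-1 probe set itself read 371, 260.4 and 302 in yap-1(ys38) replicates 1, 2 and 3 against 267, 443 and 555 in wild type replicates 1, 2 and 3. The ranges of the strains overlap, and the position of the probes in relation to the ys38 change is not given, so the genotype is not checked by it. Of 10 intestinal markers, 9 read above the filter intensity, end-3 being the exception. These markers include the cascade members elt-2, elt-7, end-1 and end-3, beside ges-1, asp-1, act-5, ifb-2, cpr-6 and pho-1. The filter is a percentile cut that most probe sets pass, so the count does not show by itself that a transcript was detected.

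None of the 5 endoderm genes tested was called different between the strains, in a test of 3 yap-1(ys38) arrays against 2 wild-type arrays. The intervals were wide, at med-1 from 0.409-fold to 1.66-fold, so a lack of change is not shown. Of the 9 member probe sets 7 passed the filter, for skn-1, med-1, end-1, elt-2 and elt-7, and limma called 0 of them at an adjusted p under 0.05, against 0 of all 13529 probe sets (0%). At an unadjusted p under 0.05 there were again 0 of 7, against 1.04% of all probe sets tested, and the methods' t-test also gave 0 of 7 at a p of 0.05 or less, against 1.49% of all. Another limma fit of these 5 arrays blocked on replicate number. In it yap-1(ys38) replicate 2 has no wild-type partner, so the difference rests on replicates 1 and 3 of each strain. This fit called 0 of 7 at an adjusted p under 0.05, against 0.0887% of all. An unadjusted p under 0.05 was reached by 0 of 7, against 3.46%. The direction was upward for both skn-1 probe sets and downward for the other 5, with log2 fold changes from -0.28 to 0.23. Over the 5 genes, each at its brightest probe set, the median log2 fold change was -0.13, and it was 0.01 over all probe sets tested.

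**Figure D1:**
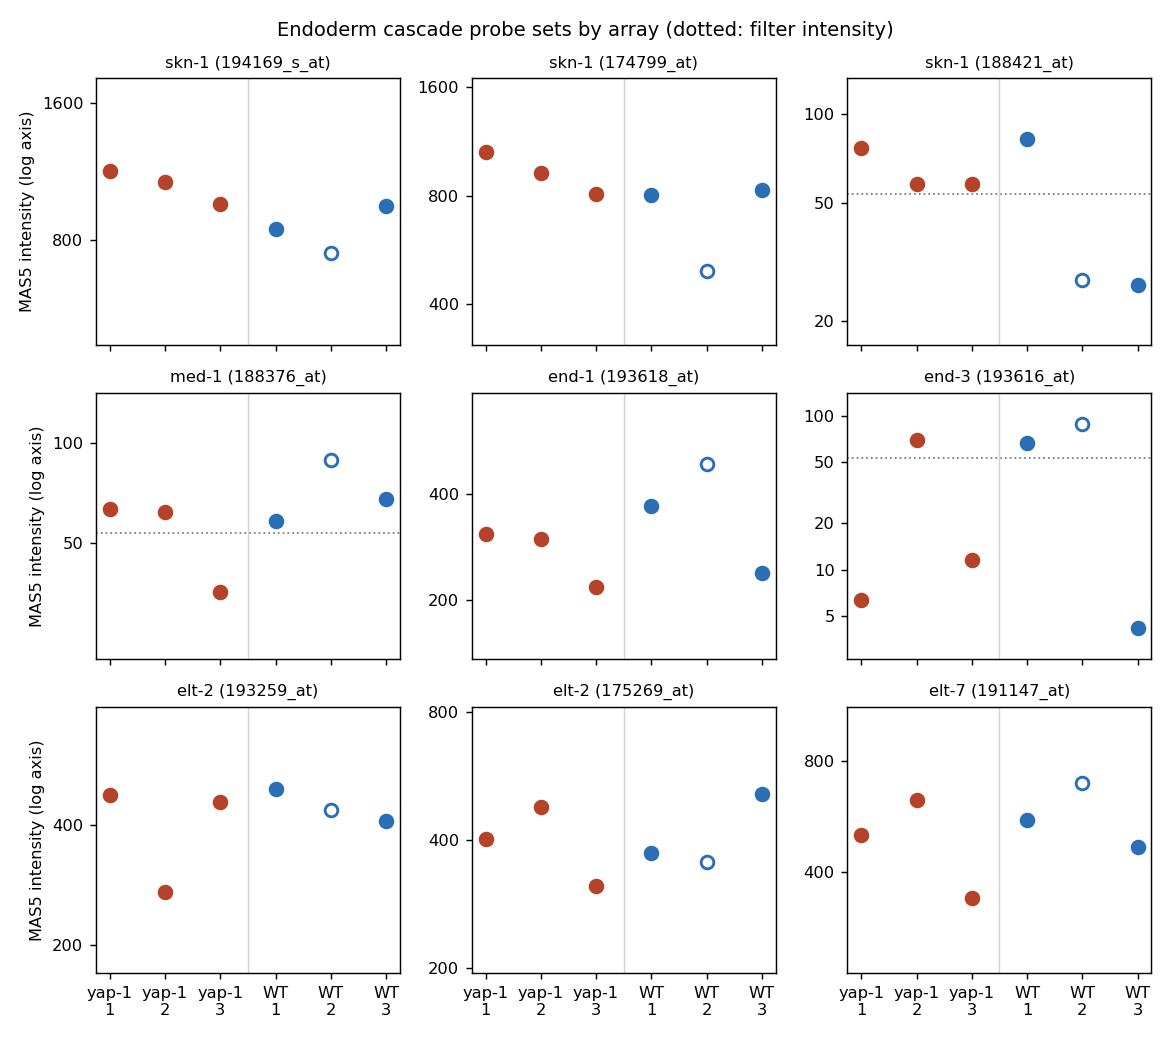
MAS5 intensity (log axis, scaled separately in each panel) of the 9 probe sets of the endoderm cascade in each array, yap-1(ys38) replicates in red and wild-type replicates in blue, with wild type replicate 2, left out of the test, as an open circle. The dotted line is the filter intensity of 53.5. The strains overlap in every panel except the first, where the yap-1(ys38) arrays at 959 to 1136 lie above the wild-type arrays at 749 to 947.

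skn-1, which heads the cascade and in later life serves the response to oxidative stress in the gut, read highest in the mutant. Its brightest probe set read 1136, 1071 and 959 in yap-1(ys38) replicates 1, 2 and 3, against 846, 749 and 947 in wild type replicates 1, 2 and 3. All yap-1(ys38) arrays lay above all wild-type arrays, though the lowest mutant and the highest wild-type array were close together. The log2 mean was 10.04 ± 0.12 in yap-1(ys38) (SD, n = 3) and 9.81 ± 0.11 in wild type replicates 1 and 3 (SD, n = 2). The log2 fold change was 0.23 (SE 0.19, 95% confidence interval -0.20 to 0.67; limma, adjusted p = 1), a 1.18-fold difference whose interval ran from 0.869-fold to 1.59-fold. With wild type replicate 2 left out, 1 of the 7 member probe sets had all yap-1(ys38) arrays above and 0 had all below, against 5.9% and 4.92% of all probe sets tested (10.8% in either direction). With all 6 arrays the upward share was 2.86% and the share in either direction 4.89%, so such separation was not rare.

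The second skn-1 probe set gave 1057, 926 and 810 in yap-1(ys38) against 804, 494 and 830 in wild type replicates 1, 2 and 3. Here the strains overlapped, since yap-1(ys38) replicate 3 read below its wild-type counterpart. The difference on the log2 scale was 0.18 (SE 0.20, interval -0.28 to 0.64; limma, adjusted p = 1). The first and second probe sets ordered the arrays much alike, with wild type replicate 2 lowest in both. The third skn-1 probe set did not pass the filter, at 76.3, 57.7 and 58 in yap-1(ys38) and 82.2, 27.4 and 26.5 in wild type. Its wild-type replicates differed 3.11-fold among themselves, more than the strains did, and which skn-1 transcripts each probe set detects is not given in the sources used here.

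med-1, the GATA-type factor that SKN-1 switches on first, was dim. Its probe set read 63.2, 61.9 and 35.5 in yap-1(ys38), against 58.3, 88.7 and 67.8 in wild type replicates 1, 2 and 3. The values lie around the filter intensity of 53.5, and yap-1(ys38) replicate 3 alone fell below it. The log2 mean was 5.69 ± 0.47 in yap-1(ys38) (SD, n = 3) and 5.97 ± 0.16 in wild type replicates 1 and 3 (SD, n = 2), and the log2 fold change was -0.28 (SE 0.45, interval -1.29 to 0.73; limma, adjusted p = 1). Without yap-1(ys38) replicate 3 it was -0.01, so the difference rested on that array. Because med-1 and med-2 are near-identical, signal of both may reach this probe set, which the annotation gives to med-1 alone.

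end-1, the GATA factor made in the E cell, read lower on average in yap-1(ys38), within the spread of both strains. Its probe set gave 308, 299.6 and 218 in yap-1(ys38), against 371, 486 and 239 in wild type replicates 1, 2 and 3. The highest value was that of wild type replicate 2 and the lowest that of yap-1(ys38) replicate 3, with wild type replicate 3 close to it. The log2 mean was 8.09 ± 0.28 in yap-1(ys38) (SD, n = 3) and 8.22 ± 0.45 in wild type replicates 1 and 3 (SD, n = 2). The log2 fold change was -0.13 (SE 0.30, interval -0.81 to 0.55; limma, adjusted p = 1), so changes from 0.571-fold to 1.46-fold lie within the interval. The sign depended on single arrays, being 0.19 when wild type replicate 1 was left out and 0.03 when yap-1(ys38) replicate 3 was.

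end-3, which acts with and slightly ahead of end-1, was not measured well enough to be tested. Its probe set read 6.40, 70.3 and 11.6 in yap-1(ys38) and 66.9, 88.7 and 4.19 in wild type replicates 1, 2 and 3. In 3 of the 6 arrays it lay under the filter intensity, and the arrays differed 21.1-fold, far more than the 1.94-fold median range of the probe sets tested. Both strains held bright and dim arrays. In a fit without the filter the log2 fold change was 0.05, with an SE of 1.44 and an interval from -3.23 to 3.33 (limma, adjusted p = 1), which leaves even large changes in either direction undetectable.

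elt-2, the GATA factor that maintains the differentiated gut, was measured by 2 probe sets that disagreed on the order of the arrays. The first read 473, 272.5 and 456 in yap-1(ys38), against 492, 435 and 409 in wild type replicates 1, 2 and 3. Only yap-1(ys38) replicate 2 was low there. The second read 402, 477 and 311 in yap-1(ys38) against 373, 356 and 513 in wild type, so that yap-1(ys38) replicate 2, lowest at the first probe set, was second highest at the other. Over the 6 arrays the probe sets of elt-2 correlated at -0.58, as a description of these arrays. The log2 fold changes were -0.21 (SE 0.30, interval -0.88 to 0.46) and -0.16 (SE 0.27, interval -0.78 to 0.46), each with an adjusted p of 1 in limma. The direction was downward at both, while blocking on replicate number gave, at the first probe set, 0.049, and at the second -0.31. That block leaves yap-1(ys38) replicate 2 without a wild-type partner, so this array does not enter the difference. With the block and all 6 arrays the values were -0.19 and -0.06.

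elt-7, which works redundantly with elt-2 in gut differentiation, read 503, 628 and 342 in yap-1(ys38), against 555, 698 and 468 in wild type replicates 1, 2 and 3. In each strain replicate 2 was highest and replicate 3 lowest. The log2 mean was 8.90 ± 0.44 in yap-1(ys38) (SD, n = 3) and 8.99 ± 0.17 in wild type replicates 1 and 3 (SD, n = 2). The log2 fold change was -0.10 (SE 0.29, interval -0.75 to 0.56; limma, adjusted p = 1). Leaving out wild type replicate 1 gave 0.03, and leaving out yap-1(ys38) replicate 3 gave 0.14.

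**Figure D2:**
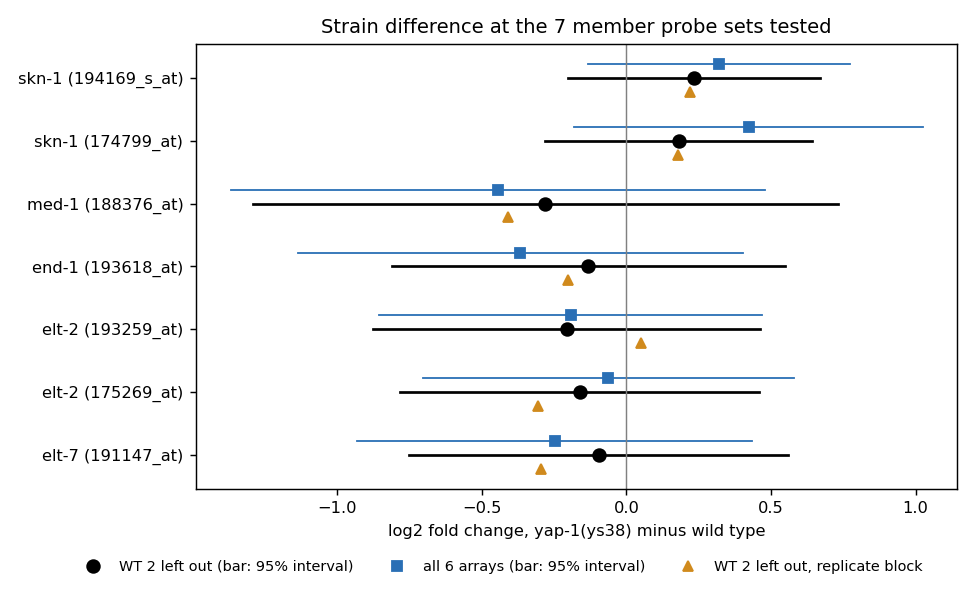
Log2 fold change (yap-1(ys38) minus wild type) at the 7 probe sets tested, with 95% confidence intervals. Black circles leave out wild type replicate 2, blue squares use all 6 arrays, and orange triangles add the replicate number as a block without wild type replicate 2. Every interval drawn includes 0, and the first elt-2 probe set is the one at which the block changes the sign, with -0.21 unblocked and 0.049 blocked.

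With all 6 arrays the differences kept their signs and none was called (limma, adjusted p = 0.997 for each). skn-1 then stood at 0.32 (SE 0.20) and 0.42 (SE 0.26), med-1 at -0.45 (SE 0.40), end-1 at -0.37 (SE 0.34) and elt-7 at -0.25 (SE 0.30). The downward values of med-1, end-1 and elt-7 were larger than without wild type replicate 2, which read highest of all arrays at each of them.

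Arrays that carry the same replicate number deviated together in these values, and the strains were therefore set side by side within a number. end-1 was lower in yap-1(ys38) in all 3 pairs, by log2 differences of -0.27, -0.70 and -0.13 for numbers 1, 2 and 3. elt-7 was also lower in all 3 pairs, at -0.14, -0.15 and -0.45, and the brightest skn-1 probe set was higher in all 3, at 0.42, 0.52 and 0.02. Of all probe sets tested, 11% were lower and 12.5% higher in yap-1(ys38) in all 3 pairs, so shared direction alone is common. With the number as a block and all 6 arrays, end-1 gave -0.37 (SE 0.27), elt-7 -0.25 (SE 0.22) and skn-1 0.32 (SE 0.20), and limma called none (adjusted p = 0.930 for each). At an unadjusted p under 0.05 that fit gave 0 of 7 members, against 2.43% of all probe sets tested. The pairs did not share a direction for med-1 (0.12, -0.52 and -0.93) or for either probe set of elt-2 (-0.06, -0.67 and 0.15 at the first, 0.11, 0.42 and -0.72 at the second).

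**Figure D3:**
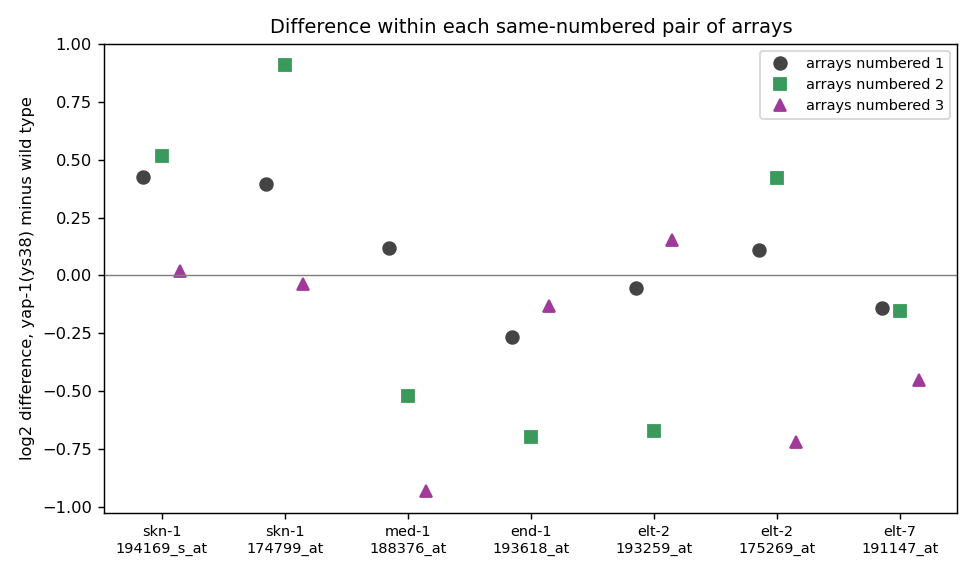
Log2 difference between the yap-1(ys38) and the wild-type array of the same replicate number (circles for 1, squares for 2, triangles for 3) at the 7 probe sets tested. end-1 and elt-7 lie below 0 and the brightest skn-1 probe set above 0 in all 3 pairs, the smallest of these differences being 0.02, while med-1 and elt-2 take both signs.

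The genes around the cascade were read from lists chosen with earlier results of these data known. Of the 21 maternal inputs, which include the Wnt ligand mom-2, the kinase lit-1 and the TCF factor pop-1, 20 were tested and limma called 0 in either direction. Their median log2 fold change was 0.09, with 15 higher and 5 lower in yap-1(ys38), against 6925 higher and 6604 lower of all 13529 probe sets tested. Within the pairs numbered 1, 2 and 3, 9, 8 and 11 of the 20 were higher. lit-1, the Nemo-like kinase that acts on POP-1, read 1729, 1762 and 1490 in yap-1(ys38) against 1357, 1458 and 1217 in wild type replicates 1, 2 and 3, without overlap. It was the gene with the lowest p of this list, and 4.89% of all probe sets tested showed no overlap over the 6 arrays. With wild type replicate 2 left out, 10% of the maternal inputs showed none, against 10.8% of all. Its log2 fold change was 0.37 (SE 0.18; limma, adjusted p = 1), with 0.46 and 0.28 at its other probe sets. The other inputs with the lowest p were pos-1, a zinc-finger RNA-binding protein (-0.19, SE 0.13, and 0.05 at its other probe set), kin-19, a casein kinase (0.27, SE 0.22, and -0.03 at its other probe set), and mex-1, another zinc-finger RNA-binding protein (0.39, SE 0.38, and -0.08 at its other probe set).

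The sdz genes were named for zygotic transcription that depends on SKN-1, and they give a wider reading of early SKN-1 output. Of 38 symbols 32 were measured and 25 tested, with 0 called in either direction by limma and a median log2 fold change of 0.03 (14 higher, 11 lower). The median had no stable sign: it was -0.09 with all 6 arrays, 0.18 when yap-1(ys38) replicate 3 was left out, and 0.17, -0.51 and -0.11 within the pairs numbered 1, 2 and 3. sdz-12 read 123, 164 and 144 in yap-1(ys38) against 58.3, 133 and 108 in wild type replicates 1, 2 and 3. The strains separated once wild type replicate 2 was left out, as they did at 16% of the sdz genes and 10.8% of all probe sets tested. The log2 fold change of sdz-12 was 0.85 (SE 0.37; limma, adjusted p = 1). sdz-33 (0.52, SE 0.31), sdz-1 (0.51, SE 0.34) and sdz-26 (0.44, SE 0.35) followed, each also upward. The other named GATA-type genes, which act mainly in the epidermis, gave 0 calls among 5, with elt-3 at 0.30 (SE 0.24), elt-1 at -0.12 (SE 0.19), egl-18 at 0.13 (SE 0.22) and elt-6 at 0.06 (SE 0.19). The other probe sets of elt-3, egl-18 and elt-6 gave 0.17, 0.29 and 0.42.

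At the far end of the cascade, 24 of 25 gut differentiation genes were tested and limma again called 0. Of these 20 lay lower and 4 higher in yap-1(ys38), with a median log2 fold change of -0.13. Of all 13529 probe sets tested 6604 lay lower and 6925 higher. Within the pairs numbered 1, 2 and 3, 10, 21 and 10 of the 24 gut genes were higher in yap-1(ys38), so the direction was not consistent. The list also holds general epithelial genes such as dlg-1, par-6 and let-413. ifc-2, an intermediate filament gene of the gut, read 846, 599.9 and 1211 in yap-1(ys38) against 897, 207 and 1949 in wild type replicates 1, 2 and 3 (log2 fold change -0.64, SE 0.37, and -0.34 at its other probe set; limma, adjusted p = 1). Wild type replicate 2 was far below all other arrays. eps-8, an actin regulator of microvilli, stood at -0.30 (SE 0.20, and -0.30 and -0.01 at its other probe sets), the aspartyl protease gene asp-1 at -0.34 (SE 0.26) and the intermediate filament gene ifb-2 at -0.27 (SE 0.24). With all 6 arrays the median of the list turned to 0.25, and within same-numbered pairs it was -0.08, 0.91 and -0.07, so its sign depended on wild type replicate 2.

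The contrast within wild type was that of replicate 2 with replicates 1 and 3. At every tested member probe set but the first of elt-2 it was larger in size than that between the strains. The share of all probe sets tested at which this holds was not counted. The contrast cannot be tested with a single array. In whole embryos, fewer cells of a type and less RNA per cell cannot be told apart. end-1 read 486 in wild type replicate 2 against 371 and 239, 1.63-fold above the geometric mean of the others. elt-7 read 698 against 555 and 468 (1.37-fold), and med-1 88.7 against 58.3 and 67.8 (1.41-fold). skn-1 lay the other way, with its first 2 probe sets at 0.836-fold and 0.604-fold, and the elt-2 probe sets stood at 0.969-fold and 0.814-fold. Wild type replicate 2 was the highest of the 6 arrays at 3 of the 5 genes, against 32.4% of all probe sets tested, and the lowest at 1, skn-1, against 34.7%.

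In the same array the sdz genes and maternal inputs lay higher as lists and the gut differentiation genes lower. The median log2 difference of wild type replicate 2 from wild type replicates 1 and 3 was 0.58 for the sdz genes and 0.34 for the maternal inputs, but -1.29 for gut differentiation genes, against 0.01 over all probe sets tested. Of the 25 sdz genes 21 read higher there and 14 highest of all arrays. Of the 20 maternal inputs tested 17 read higher. bar-1 (-1.21) and kin-19 (-0.49), chosen after their values were seen, were among those that read lower. sdz-30, chosen after its values were seen, read 1194 in wild type replicate 2 against 350.3 and 470 in wild type replicates 1 and 3, and 319 to 484 in yap-1(ys38). sdz-24, chosen likewise, went the other way, at 133 against 253 and 604. Of the 24 gut differentiation genes 18 read lowest in wild type replicate 2. asp-1 fell there to 1655, against 8573 and 9226, a log2 difference of -2.43. The gut genes act-5, the actin of microvilli, and vha-6, a proton pump subunit, stood at -1.90 and -2.11 and were also chosen after their values were seen. The esterase gene ges-1, at 137 against 209 and 93.8, did not follow them (-0.04) and was chosen for that.

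**Figure D4:**
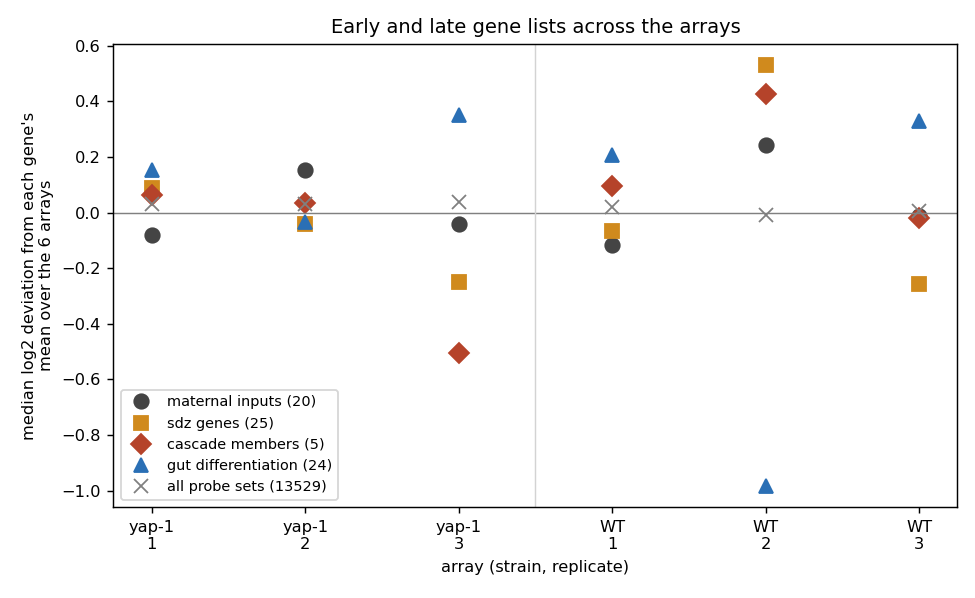
Median log2 deviation of each list in each array, a gene's deviation being taken from its own mean over the 6 arrays, with the number of genes or probe sets tested in brackets. In wild type replicate 2 the sdz genes (0.53), the 5 cascade members (0.43) and the maternal inputs (0.24) lie above 0 and gut differentiation genes (-0.98) below it. In the yap-1(ys38) arrays the lists lie from -0.50 to 0.35. The -0.50 is that of the cascade members in yap-1(ys38) replicate 3, a larger deviation than theirs in wild type replicate 2.

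Marker lists of several other tissues and stages differed in this array, though not every list or gene did so alike. The sum of 7 epidermal markers was 22552 in wild type replicate 2, against 26893 and 28335 in wild type replicates 1 and 3. Within the lists below, the muscle gene hlh-1 read 353 against 346 and 407, and the early zygotic gene tbx-37 read 80.8 against 112 and 79.0. sdz-28 alone gave 2598 of the early zygotic sum there. The summed intensity of 6 early zygotic markers, of which 5 read above the filter intensity and sdz-28 is also in the sdz list, was 5087 in wild type replicate 2, against 2966 and 2699 in wild type replicates 1 and 3, with 2522 to 3117 in yap-1(ys38). That of 6 body wall muscle markers was 12749 against 25887 and 33945, with 25754 to 30237 in yap-1(ys38), and that of 5 yolk genes, a sign of adult material, was 12316 against 7058 and 131, with 284 to 4500 in yap-1(ys38). Among the control probe sets of 4 transcripts, the 3-prime end outshone the 5-prime end by a mean log2 ratio of 3.64 in wild type replicate 2 and 2.68 and 3.74 in wild type replicates 1 and 3, with 2.86 to 3.07 in yap-1(ys38). The part of embryo age, tissue makeup, adult material or RNA quality in the levels of the cascade was not tested.

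Some of these genes also differed between replicates 1 and 3 in both strains. end-1 was higher in replicate 1 than in replicate 3, at 308 and 218 in yap-1(ys38) and 371 and 239 in wild type, as was elt-7, and 15 of 25 sdz genes (60%) had replicate 1 above replicate 3 in both strains, against 29.5% of all probe sets tested. Maternal inputs and gut differentiation genes did so in 20% and 16.7% of cases. Markers of adult material differed between the same replicates: the yolk sum was 4500 in replicate 1 and 284 in replicate 3 of yap-1(ys38), and 7058 and 131 in wild type. The sum of 6 sperm markers, 5 of them above the filter intensity, was 1180 and 463 in yap-1(ys38) and 1144 and 307 in wild type. The part of this material in the difference between replicates was not tested.

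The courses of the members over the arrays were compared as descriptions of 6 arrays that share pairs of replicate numbers and hold 1 array that stands apart. end-1 and elt-7 correlated at 0.85 (0.78 without wild type replicate 2), med-1 and elt-7 at 0.86 (0.79) and end-1 and end-3 at 0.73 (0.63), but med-1 and end-3 at 0.30 (-0.01). skn-1 at its brightest probe set ran against end-1, at -0.61, but at -0.11 without wild type replicate 2, so that relation rested on 1 array. elt-2 at its first probe set correlated with the other member probe sets at -0.58 to 0.14. Its second probe set differed from that, with 0.45 for med-1 (0.86 without wild type replicate 2) and 0.31 for elt-7 (0.63), so the likeness of elt-2 to the rest depended on the probe set. Among all genes tested, the courses nearest to end-1 over the 6 arrays were those of taf-11.1, a subunit of the general transcription factor TFIID, thk-1 and F53B1.2 (0.996, 0.989 and 0.988). Nearest to elt-7 were Y62E10A.6, xpo-2, an exportin, and age-1, the catalytic subunit of PI3 kinase (0.995, 0.994 and 0.991). For med-1 they were spds-1, the spermidine synthase, F45G2.9 and F13H10.3 (each 0.986), for skn-1 mca-2, a calcium pump, dpy-21, a dosage compensation gene, and kvs-3 (0.994, 0.974 and 0.971), and for elt-2 hrpu-1, Y38H8A.1 and tmem-135 (0.994, 0.992 and 0.991). These genes were picked as the nearest of 10260 over 6 arrays, so the size of the correlations is a description of that choice.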

How the data were processed

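The authors deposited linear MAS5 signal intensities with global scaling, per the series' design text and the submitters' processing notes. Detection calls were not used here. Gene names came from the platform annotation, where 20810 probe sets had 1 gene symbol, 843 several and 895 none listed (a symbol repeated within a probe set counted once). All 20810 symbols stand in the RefSeq table of WBcel235. Log2 values entered limma 3.58.1 (R 4.3.3; lmFit and eBayes with trend, two-sided tests, Benjamini-Hochberg adjustment over 13529 probe sets, threshold 0.05) on 5 arrays, the number of which limits the precision. The test was tried on simulated data. The changes planted there were larger than any difference of the members tested, so the trial does not show the power at such sizes. Named genes were the members, from each list the 4 lowest-p genes at most, and the 3 genes most like each member tested. Members and lists were chosen with earlier results of these data known.

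Replicate numbers come from the sample titles. After subtracting each strain's mean, arrays sharing number 1, 2 or 3 correlated at 0.364, 0.345 and 0.445. Arrays of unlike number correlated at -0.335 to 0.0153. Deviations within a strain cancel out, so these correlations depend on one another. The pairing was read from the same values it was applied to, so it is not an independent check. A block was tried. Other alternatives covered the arrays, normalization, filter, floor, variance model, a t-test as in the study's methods and dropping single replicates. The labels call replicates biological without saying what the numbers mark.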

Additional observations from a re-analysis of the deposited data

Results flagged for a closer look

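Wild type replicate 2, which the main comparison of the strains left out, gave the highest signal of the 6 arrays at 4 of the 6 cascade genes measured: med-1 at 88.7, end-1 at 486, end-3 at 88.7 and elt-7 at 698. end-3 did not pass the filter, and among the 5 genes tested the count was 3. The same array was lowest at the first 2 skn-1 probe sets, at 749 and 494, and highest at neither elt-2 probe set. Wild type replicate 2 was highest at 32.4% of all probe sets tested, and it stood apart from the other arrays as a whole.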

How the results depend on the processing

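None of the 7 member probe sets tested was called under any of the 16 alternatives run, and none reached an unadjusted p under 0.05. Without the filter, or with it at the 20th percentile, the third skn-1 and the end-3 probe sets were tested too and were not called. Over all probe sets limma called 12 with the replicate block and 3 without wild type replicate 1 (leaving out each replicate gave 0 to 3), against 0 otherwise. The log2 fold change of elt-2 reversed to 0.049 with the replicate block and also without yap-1(ys38) replicate 2. These are the same estimate and not separate evidence. With wild type replicate 2 left out, yap-1(ys38) replicate 2 has no partner in the block and does not enter the difference. Leaving out each replicate in turn, values ran from -0.45 to 0.19 for end-1 and -0.30 to 0.14 for elt-7. For elt-2 they ran from -0.35 to 0.049 at the first probe set and -0.39 to 0.07 at the second. skn-1 (0.15 to 0.32 at its brightest probe set, 0.08 to 0.28 at the second) and med-1 (-0.42 to -0.01) kept their sign under all alternatives run. With a wild-type array left out, the lone wild-type array was assumed to vary like the others. The replicate block changed no call of a member. The median of the maternal inputs turned to -0.06 with all 6 arrays and -0.03 without wild type replicate 1, that of the sdz genes to -0.09 with all 6 arrays, and that of the other GATA-type genes to -0.02 with the replicate block. Without wild type replicate 1 the median of the SKN-1 stress targets was 0.22. med-1, end-3 and the third skn-1 probe set lay near or under the filter intensity, which limits what their values show.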

Other observations

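Factors of fates other than gut, many of them epidermal, were read from 14 genes, of which all but tbx-35 were tested, and limma called 0. Of the 13, 5 lay higher and 8 lower in yap-1(ys38), with a median log2 fold change of -0.11. hlh-1, the worm MyoD factor, read 324, 299.6 and 212 in yap-1(ys38) against 346, 353.3 and 407 in wild type replicates 1, 2 and 3, without overlap between the strains (log2 fold change -0.45, SE 0.28; limma, adjusted p = 1). It had the lowest p of its list, and 4.89% of all probe sets tested showed no overlap over the 6 arrays. With wild type replicate 2 left out, 7.69% of the list showed none, against 10.8% of all. lin-26, an epidermal zinc-finger factor, stood at -0.25 (SE 0.16, and 0.06 at its other probe set) and hnd-1, the Hand factor of early mesoderm, at -0.43 (SE 0.28).

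SKN-1 also drives detoxification genes in the gut under stress. Of 11 such genes 9 were tested and limma called 0, with a median log2 fold change of 0.01 (5 higher, 4 lower), which became 0.22 when wild type replicate 1 was left out. The glutathione transferase genes gst-4, gst-10 and gst-7 stood at 0.21 (SE 0.26), 0.19 (SE 0.22) and 0.19 (SE 0.17), and the nitrilase gene nit-1 at 0.23 (SE 0.31). gst-4 read 266, 213 and 275 in yap-1(ys38) and 218, 37.2 and 214 in wild type replicates 1, 2 and 3, so that wild type replicate 2 was far below the rest.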
